A study of Mus musculus with 21 samples.

Results

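The first 12 h after removal of LIF and the paired inhibitors known as 2i were examined in wild type mouse embryonic stem cells (ESCs), by setting 3 libraries collected 12 h after removal against 3 libraries of the starting culture. These 6 of the 21 libraries in the series were chosen by their titles. At 0 h the ESCs grew on 0.1% gelatin in medium with 15% fetal bovine serum, LIF, 1 µM of the MEK inhibitor PD0325901 and 3 µM of the GSK3 inhibitor CHIR99021. At 12 h LIF and both inhibitors had been withdrawn, and no retinoic acid (RA) had been given. Whether the medium at 12 h differed from that at 0 h in other ways, serum included, is not stated. The other libraries of the series hold wild type ESCs without RA for 24 h, ESCs given 2 µM RA for 12 or 24 h, and a separate set of wild type and Cyp26a1 knockout ESCs after 24 h of RA. Of the 32285 genes listed in the time course tables, 13948 reached at least 1 TPM (a share of all transcripts in a library, scaled for gene length) in 3 or more of its 15 libraries and were tested. LIF, PD0325901 and CHIR99021 were removed together, so their separate effects cannot be told apart. No culture was kept in LIF and 2i for the same 12 h, so removal, time in culture and time since the last medium change cannot be told apart. The sources used here do not name the parental cell line, nor say whether the numbered replicates were separate cultures. Each p-value for a gene reflects only how far libraries scatter within the 5 groups of all 15 time course libraries. That scatter may be technical.

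In mouse ESCs, LIF acts through the receptor subunits Lifr and Il6st and the kinase Jak1 on the transcription factor Stat3, which keeps naive genes on. PD0325901 blocks the MEK kinases that activate ERK downstream of FGF receptors, and CHIR99021 blocks GSK3, so that beta-catenin accumulates as it would under a WNT signal. Cells that lose these inputs are known to leave the naive state through a formative state marked by Otx2, Pou3f1 and de novo DNA methyltransferases, before they can respond to lineage signals.

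Between 2.96 and 3.91 gigabases were aligned per library among the 6, and 11928 to 12641 genes reached 1 TPM. Pearson correlations of log2(TPM + 1) between libraries of one group lay between 0.991 and 0.993 at 0 h and between 0.966 and 0.991 at 12 h, and those between the groups between 0.931 and 0.955. Within groups, 1 axis held 67.2% of the residual variance, and across genes the loading on this axis had a Spearman correlation of 0.695 with GC content. The first 12 h library lay at -31.79 on that axis and the other two at 43.5 and 13.46, against -28.46 to 0.81 at 0 h. Rif1, Tet1, Tet2, Suz12 and Mki67, described below, all lie in the lowest 1% of loadings on this axis. Many results that moved without 1 library are given with their values, but not all of them are. Pou5f1, which marks pluripotent cells, lay between 2245 and 3393 TPM in the 6 libraries. The ubiquitous gene Hprt is listed between 0 and 0.9 TPM in these libraries. As the parental line is not named, a true low level and a failed estimate cannot be told apart here. Strand is not stated, so overlapping and antisense genes are uncertain.

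At an adjusted p below 0.05 (limma over all genes tested, Benjamini-Hochberg adjustment), 3073 genes were higher at 12 h, which is 22.0% of those tested, and 2849 were lower, which is 20.4%. These shares are the background for every list count below. The median change of all genes was -0.04 on the log2(TPM + 1) scale, which is the scale of every change given here with its standard error, and which understates the change of low genes. At least a 2-fold change on that scale was seen for 702 higher genes (5.03%) and 712 lower genes (5.1%), and without the first 12 h library the lower count became 1286. The 12 h libraries all lay above the 0 h libraries in 25.2% of the tested genes and all below them in 23.8%. Of the called genes, 2404 higher and 2073 lower ones kept their call when each of the 6 libraries was left out in turn. The lists with the largest shares of higher members were the formative genes and the S100, galectin and annexin genes. Those with the largest shares of lower members were the integrated stress response, the Hoxc and Hoxd genes, glycolysis and cholesterol synthesis. The share of the Hoxc and Hoxd genes may be partly set by the expression filter, as described with those genes below. All lists were chosen with earlier results of these data known, so their shares and ranking are a description and not a test.

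**Figure D1:**
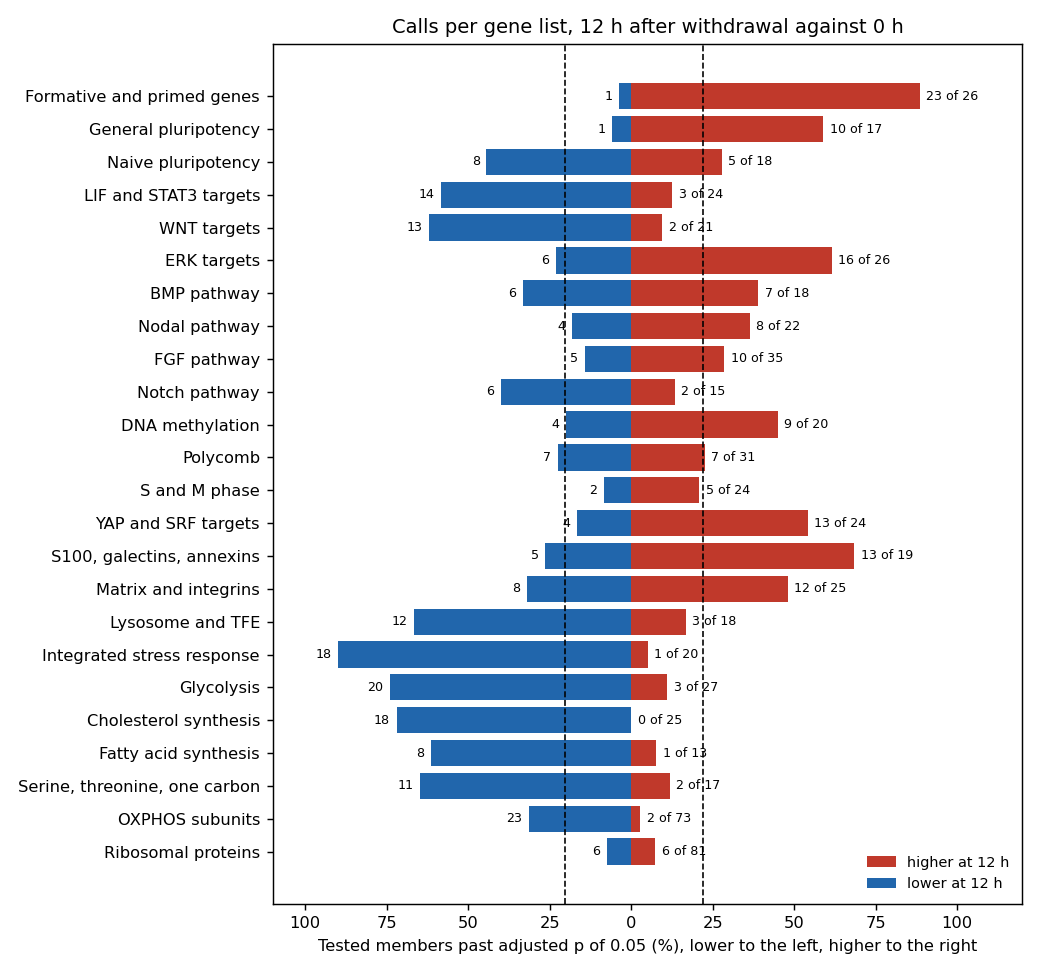
Share of tested members of each gene list past an adjusted p of 0.05, in percent, with lower genes to the left (blue) and higher genes to the right (red), numbers of members beside each bar, and dashed lines at the shares over all genes (20.4% lower, 22.0% higher). The integrated stress response has 18 of 20 members lower, and the formative list 23 of 26 higher.

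LIF signalling was followed first at its own components. Stat3, the transcription factor activated by LIF, was at 84.1, 70.5 and 83.3 TPM at 0 h and 26, 29.6 and 28.5 TPM at 12 h (change -1.46 ± 0.08, adjusted p = 1.6e-08), and the groups did not overlap. Il6st, the signal-transducing gp130 subunit shared by the LIF receptor family, stood at 18.7, 20.2 and 22 TPM at 0 h and 14.4, 10.5 and 13.1 TPM at 12 h and also fell (change -0.65 ± 0.14, adjusted p = 0.0027). The LIF-binding subunit Lifr had 9.55, 9.54 and 13.7 TPM at 0 h and 17.1, 7.42 and 9.67 TPM at 12 h, and its groups overlapped (change -0.00 ± 0.31, adjusted p = 1). Cntfr, the binding subunit for ciliary neurotrophic factor that pairs with the same receptor chains, moved the other way, from 3.91, 3.01 and 3.31 TPM to 24.9, 29.3 and 22.9 TPM (change 2.60 ± 0.11, adjusted p = 9.6e-10). Pias3, an inhibitor of Stat3, fell (34.9 to 20.7 TPM, change -0.73 ± 0.08, adjusted p = 6.6e-06), as did Stat5b (9.35 to 5.17 TPM, change -0.75 ± 0.14, adjusted p = 0.00063). In all, 3 of 16 tested pathway members rose and 6 fell. In bulk RNA, fewer cells expressing a gene and less RNA per cell cannot be told apart.

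Among 24 tested LIF and STAT3 target genes, 14 fell and 3 rose, with a median change of -0.63. Socs3, the feedback inhibitor of the JAK kinases, was at 167, 150.5 and 159 TPM at 0 h and 7.07, 10.2 and 8.02 TPM at 12 h (change -4.09 ± 0.14, adjusted p = 1.1e-10). Bcl3, a nuclear partner of NF-kappa B, was at 121, 94.2 and 108 TPM at 0 h and 20.0, 24.8 and 19.7 TPM at 12 h (change -2.27 ± 0.14, adjusted p = 2.8e-08). In both genes every 12 h library lay below every 0 h library. The transcription repressor Bcl6 fell from a mean of 3.8 to 1.06 TPM (change -1.21 ± 0.15, adjusted p = 2.3e-05). The adhesion receptor Icam1 fell from 96.1 to 43.5 TPM (change -1.13 ± 0.09, adjusted p = 2.5e-07). Mt1, a metallothionein that binds metal ions, fell as well (643 to 304 TPM, change -1.08 ± 0.06, adjusted p = 1.7e-08). Its neighbour Mt2 did so too (1032 to 681 TPM, change -0.60 ± 0.07, adjusted p = 6.9e-06). Not all feedback inhibitors of this family followed Socs3. Socs2 rose from 9.34, 9.71 and 11.3 TPM to 27.7, 22.6 and 27.1 TPM (change 1.27 ± 0.12, adjusted p = 2.4e-06). Socs1 and Cish did not pass the test (changes -0.18 ± 0.20 and -0.04 ± 0.14). Myc, also counted among STAT3 targets in ESCs, rose and is described with its family below.

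The STAT binding motif TTCNNNGAA was searched on both strands in the 250 bases upstream of RefSeq start sites (GRCm38.p6). It was present in 8.13% of 27018 genes with a promoter in that table and in 6.79% of the tested genes matched to it. Of all lower genes with a promoter 7.01% held the motif, and of 15 higher formative genes with a promoter 3 did. Of the 13 lower target genes with a promoter, 4 held it, namely Socs3, Icam1, Bcl6 and Zfp36. The windows of the first 3 are shown because they carry the letters beside the genes that fell, with matches in capitals, 5′ to 3′ on the gene's strand. Bcl6 has a second start in the table with 1 match in its window, and the window with 3 matches is given. A match is a description of letters, not a bound site.
Socs3 upstream window, minus strand, chr11:117969367-117969616: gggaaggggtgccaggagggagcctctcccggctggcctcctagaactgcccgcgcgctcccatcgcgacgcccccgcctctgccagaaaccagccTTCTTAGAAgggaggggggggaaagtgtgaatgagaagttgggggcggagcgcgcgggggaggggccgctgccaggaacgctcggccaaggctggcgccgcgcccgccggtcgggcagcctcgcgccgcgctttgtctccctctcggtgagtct
Icam1 upstream window, plus strand, chr9:21015690-21015939: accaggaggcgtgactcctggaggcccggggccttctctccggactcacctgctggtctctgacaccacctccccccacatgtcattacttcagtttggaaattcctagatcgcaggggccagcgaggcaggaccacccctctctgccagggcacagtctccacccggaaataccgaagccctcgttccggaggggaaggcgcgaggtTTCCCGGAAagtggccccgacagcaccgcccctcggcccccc
Bcl6 upstream window, minus strand, chr16:23981284-23981533: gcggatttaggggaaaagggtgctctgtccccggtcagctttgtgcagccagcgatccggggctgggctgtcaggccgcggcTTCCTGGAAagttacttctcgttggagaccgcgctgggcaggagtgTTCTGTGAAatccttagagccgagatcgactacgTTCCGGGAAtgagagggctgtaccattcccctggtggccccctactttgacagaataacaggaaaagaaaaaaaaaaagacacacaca

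Beta-catenin targets fell in 13 of 21 tested cases and rose in 2, with a median change of -0.74. The 10 tested transcription factors among them had a median of -2.47, and 7 fell. Sp5, a direct WNT target that represses other targets, was at 54.9, 42.1 and 50.5 TPM at 0 h and 0.152, 0.333 and 0 TPM at 12 h (change -5.43 ± 0.14, adjusted p = 8.3e-12). Nkx1-2, a homeobox gene of the posterior embryo, was at 24.4, 23.8 and 23.5 TPM at 0 h and 0.556, 0.718 and 0.275 TPM at 12 h (change -4.05 ± 0.14, adjusted p = 1.2e-10). Cdx1 had 69.4, 63.3 and 60.8 TPM at 0 h and 2.96, 3.54 and 4.48 TPM at 12 h (change -3.82 ± 0.12, adjusted p = 3.4e-11). Its relative Cdx2 had 6.54, 5.54 and 4.86 TPM at 0 h and 0.253, 0.164 and 0.111 TPM at 12 h (change -2.49 ± 0.13, adjusted p = 4.9e-09). In each of these genes the groups were far apart, and the 12 h levels of Sp5, Nkx1-2 and Cdx2 were below 1 TPM in every library. Among the libraries without RA, Sp5, Nkx1-2, Cdx2 and Rnf43, described below, reached 1 TPM only at 0 h. For a gene that passed the filter through the 0 h libraries alone, a lower level at 12 h was set in advance. The count of lower targets and the medians above may therefore owe part of their size to the filter. Tlx2 (28.9 to 2.09 TPM, change -3.29 ± 0.16, adjusted p = 2.4e-09) and the mesoderm factor T, or brachyury (8.39 to 0.73 TPM, change -2.45 ± 0.14, adjusted p = 1.8e-08), also fell.

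The feedback members of this list changed less. Axin2, a scaffold of the beta-catenin destruction complex and a common reporter of the pathway, was at 61.6, 55.1 and 60.6 TPM at 0 h and 14.4, 16.3 and 16.2 TPM at 12 h (change -1.85 ± 0.09, adjusted p = 4.1e-09), with no overlap. Rnf43, a ubiquitin ligase that removes WNT receptors from the surface, was at 1.24, 1.38 and 1.33 TPM at 0 h and 0.0791, 0 and 0 TPM at 12 h (change -1.17 ± 0.09, adjusted p = 2.7e-07). Its close relative Znrf3 did not pass (-0.04 ± 0.13). Sfrp1 (52.5 to 24.5 TPM, change -1.07 ± 0.07, adjusted p = 3.4e-08) and Nkd1 (2.16 to 0.887 TPM, change -0.74 ± 0.16, adjusted p = 0.0025), both inhibitors of the pathway, fell. Notum, an enzyme that inactivates WNT proteins, went the other way, at 41.7, 42.6 and 44.7 TPM at 0 h and 61.6, 69.3 and 60.8 TPM at 12 h (change 0.56 ± 0.11, adjusted p = 0.00089). Eomes was the other member above the threshold (7.08 to 9.42 TPM, change 0.36 ± 0.11, adjusted p = 0.02), and lost its call when the second 0 h library, or the second or the third 12 h library, was left out.

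The TCF and LEF motifs CTTTGAT and CTTTGAA were searched in the same windows. At least 1 of them was present in 8.63% of all genes with a promoter in the table and in 6.29% of the tested genes matched to it. Of the 10 lower WNT targets with a promoter, Sp5, T, Tnfrsf19 and Dkk1 held one, while Axin2 held none in its 250 bases. Dkk1 was near the floor, at 0.655, 0.862 and 0.629 TPM at 0 h and 0.14, 0.182 and 0.325 TPM at 12 h. The windows of Sp5 and T are shown for the pair of transcription factors with the motif, whose leftmost base stood at position -104 in Sp5 and -235 in T, counted from the start site.
Sp5 upstream window, plus strand, chr2:70474673-70474922: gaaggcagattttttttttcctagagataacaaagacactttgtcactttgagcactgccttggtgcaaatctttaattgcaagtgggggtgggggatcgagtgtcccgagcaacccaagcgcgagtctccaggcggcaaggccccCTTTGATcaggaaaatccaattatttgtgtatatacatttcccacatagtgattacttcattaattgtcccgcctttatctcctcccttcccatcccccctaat
T upstream window, plus strand, chr17:8434173-8434422: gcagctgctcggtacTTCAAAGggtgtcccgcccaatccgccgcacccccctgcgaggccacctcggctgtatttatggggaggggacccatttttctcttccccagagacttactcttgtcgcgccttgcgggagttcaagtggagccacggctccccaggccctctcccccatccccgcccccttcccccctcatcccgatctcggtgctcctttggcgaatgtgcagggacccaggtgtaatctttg

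Among ERK target genes 16 of 26 tested rose and 6 fell, with a median change of 0.58. Dusp6, a phosphatase that inactivates ERK, was at 3.72, 4.83 and 4.98 TPM at 0 h and 69.3, 79.1 and 79.9 TPM at 12 h (change 3.81 ± 0.09, adjusted p = 4.4e-12). Its relatives Dusp4 (1.92 to 25.7 TPM, change 3.19 ± 0.08, adjusted p = 9.1e-12) and Dusp5 (1.45 to 9.38 TPM, change 2.07 ± 0.11, adjusted p = 4.8e-09) rose with it. Dusp7 fell (8.41 to 5.57 TPM, change -0.52 ± 0.13, adjusted p = 0.0065), a call that was lost after quantile normalization. Spry4, an inhibitor of receptor tyrosine kinase signalling, was at 2.06, 2.42 and 2.34 TPM at 0 h and 43.6, 45.7 and 45.9 TPM at 12 h (change 3.81 ± 0.07, adjusted p = 3e-12). Spry2 was at 44, 49.6 and 49.4 TPM at 0 h and 47.6, 47.9 and 49.8 TPM at 12 h, and its groups overlapped (change 0.02 ± 0.06, adjusted p = 0.78). Phlda1, a pleckstrin homology domain gene induced by ERK, was at 3.37, 2.93 and 3.61 TPM at 0 h and 55.1, 62 and 59.4 TPM at 12 h (change 3.80 ± 0.08, adjusted p = 3.5e-12). The ETS factors Etv4 (71.7 to 183 TPM, change 1.34 ± 0.08, adjusted p = 2.2e-08) and Etv1 (1.58 to 11.4 TPM, change 2.22 ± 0.27, adjusted p = 2e-05) rose. Etv5, with the highest 0 h level of these 3, rose less on this scale (248 to 317 TPM, change 0.35 ± 0.07, adjusted p = 0.00086).

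Immediate early genes split. The zinc finger factor Egr1 was at 0.0495, 0.073 and 0.227 TPM at 0 h and 3.51, 3.96 and 3.62 TPM at 12 h (change 2.08 ± 0.11, adjusted p = 4.3e-09), all 12 h libraries lying above the 0 h libraries. Fos, a subunit of AP-1, fell (2.52, 3.04 and 3.1 TPM at 0 h and 0.369, 1.31 and 1.23 TPM at 12 h, change -1.01 ± 0.18, adjusted p = 0.00041). Ier3, a stress and growth response gene, also fell (59.9, 56.9 and 56.2 TPM at 0 h and 9.08, 12.1 and 10.4 TPM at 12 h, change -2.36 ± 0.14, adjusted p = 2.8e-08), and so did the small MAF factor Maff (16.7 to 5.87 TPM, change -1.37 ± 0.15, adjusted p = 6.7e-06). Fos is a STAT3 target as well, and was counted in both lists. At 24 h without RA, the mean level of Ier3 was 75.5 ± 2.4 TPM (SD, n = 3) and that of Egr1 12.7 ± 0.939 TPM. Dusp1 also fell (38.4 to 23.8 TPM, change -0.67 ± 0.08, adjusted p = 1.1e-05). The ETS motif CGGAAGT was present in 11.1% of the tested genes matched to the promoter table and in none of the 9 higher ERK targets matched to it, Dusp6 among them. This says only that these letters are not in these windows.

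**Figure D2:**
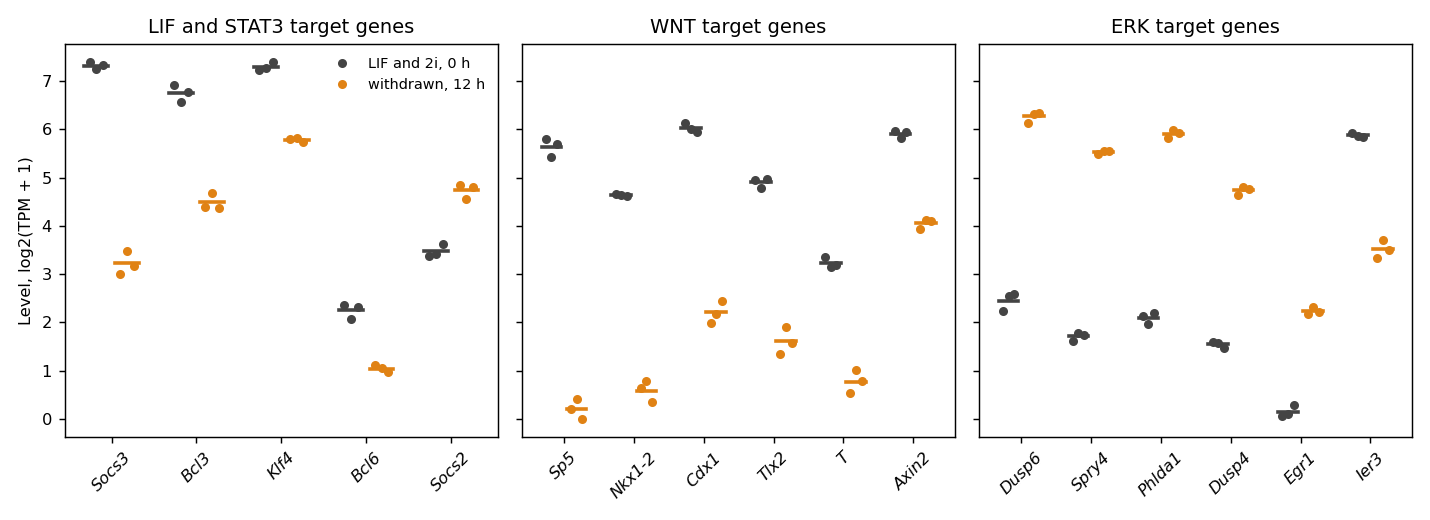
Levels of 5 target genes of LIF and STAT3 and of 6 each of WNT and ERK, as log2(TPM + 1) on a linear axis, with points for the 3 libraries at 0 h (grey) and 12 h (orange) and bars for the group means. Groups do not overlap in any of the 17 genes; Socs2 is the single LIF target shown that rose and Ier3 the single ERK target shown that fell.

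Among FGF pathway genes themselves, 10 of 35 tested rose and 5 fell, and the median change was 0.06. Fgf4, the main FGF ligand of ESCs, was at 129, 126 and 124 TPM at 0 h and 118, 146 and 134 TPM at 12 h with overlapping groups (change 0.06 ± 0.08, adjusted p = 0.54). The receptor Fgfr1 was at 69.9, 54.9 and 57.2 TPM at 0 h and 54.7, 62.7 and 58.3 TPM at 12 h (change -0.04 ± 0.09, adjusted p = 0.71). The ligands Fgf15 (2.28 to 10.7 TPM, change 1.83 ± 0.13, adjusted p = 1.4e-07) and Fgf17 (7.82 to 16.8 TPM, change 1.01 ± 0.12, adjusted p = 1.9e-05) rose. Fgf3 (8.62 to 2.38 TPM, change -1.53 ± 0.15, adjusted p = 3e-06) and Fgf10 (1.69 to 0.0593 TPM, change -1.34 ± 0.10, adjusted p = 2.6e-07) fell. Fgf5, the standard marker of the postimplantation epiblast, was listed at 0 in all 0 h libraries and at 0.482, 0.694 and 1.27 TPM at 12 h, against a mean of 13.7 ± 1.27 TPM at 24 h. The binding protein Fgfbp1, which carries FGFs away from the matrix, rose from 1.25, 1.49 and 0.539 TPM to 15.1, 11.6 and 20.8 TPM (change 3.00 ± 0.25, adjusted p = 5.9e-07). None of the kinases Map2k1, Map2k2 and Mapk3 passed the test (changes 0.01 ± 0.08, 0.16 ± 0.11 and -0.06 ± 0.09).

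Naive pluripotency factors did not fall together at 12 h. Of 18 tested, 8 fell, 5 rose and 5 did not pass, with a median of -0.31. Tfcp2l1, a naive factor downstream of Stat3, was at 205, 206 and 229.7 TPM at 0 h and 63.5, 49.8 and 59.9 TPM at 12 h (change -1.87 ± 0.10, adjusted p = 4.9e-09). Klf4 was at 149, 153 and 167 TPM at 0 h and 54.4, 55.3 and 51.9 TPM at 12 h (change -1.52 ± 0.07, adjusted p = 1.6e-09). Esrrb, a nuclear receptor that sustains self-renewal, was at 670.3, 550.0 and 585 TPM at 0 h and 290.2, 338 and 316 TPM at 12 h (change -0.93 ± 0.10, adjusted p = 6.1e-06). The groups did not overlap in these 3, and Esrrb was still at 290.2 TPM or more in each 12 h library. Nanog fell less, to 413, 358 and 437 TPM from 507, 549 and 526 TPM (change -0.39 ± 0.07, adjusted p = 0.00041).

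Other naive genes did not pass the test or rose. Tbx3, a T-box factor of the LIF network, was at 98.3, 91 and 97.3 TPM at 0 h and 93.5, 98.6 and 97 TPM at 12 h (change 0.01 ± 0.06, adjusted p = 0.89). Klf5 was at 110.2, 107 and 116 TPM at 0 h and 112, 109 and 117 TPM at 12 h (change 0.02 ± 0.05, adjusted p = 0.73). Both had overlapping groups. At 24 h the mean of Tbx3 was 20.3 ± 0.826 TPM. Zfp42, known as Rex1 and widely used to mark naive cells, was higher at 12 h, at 286, 349 and 360.2 TPM at 0 h and 544, 426 and 534 TPM at 12 h (change 0.59 ± 0.12, adjusted p = 0.0013). Nr0b1, or Dax1, an orphan nuclear receptor that represses Pou5f1 activity, rose from 32.1, 34.9 and 36.3 TPM to 164, 212 and 200.4 TPM (change 2.44 ± 0.10, adjusted p = 3.8e-10), the largest rise in the list. Gbx2 (29.6 to 41 TPM, change 0.46 ± 0.10, adjusted p = 0.0023) and Tex19.1 (58.1 to 114 TPM, change 0.96 ± 0.08, adjusted p = 7.6e-07) rose as well.

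General pluripotency genes rose in 10 of 17 tested cases and fell in 1. Pou5f1, which encodes Oct4, was at 2438, 2281 and 2245 TPM at 0 h and 2882, 3393 and 3081 TPM at 12 h (change 0.42 ± 0.07, adjusted p = 0.00034). Sox2, its partner, was at 208, 209 and 224 TPM at 0 h and 246, 262 and 271 TPM at 12 h (change 0.28 ± 0.06, adjusted p = 0.0021), a call that was lost under correction for GC content and length. Utf1, a chromatin factor of ESCs, rose from 50.2, 40.9 and 47.1 TPM to 622, 749 and 617 TPM (change 3.82 ± 0.10, adjusted p = 1.1e-11). Dppa2 (19.4 to 174 TPM, change 3.10 ± 0.12, adjusted p = 2.6e-10) and Dppa4 (68.6 to 209 TPM, change 1.58 ± 0.10, adjusted p = 3.1e-08), which act together at developmental promoters, rose too. The RNA-binding protein Lin28a did the same (70.7 to 220.5 TPM, change 1.62 ± 0.07, adjusted p = 9.5e-10). The lower member was Tdgf1, the Nodal co-receptor Cripto, at 388, 449 and 454 TPM at 0 h and 372, 355 and 404 TPM at 12 h (change -0.19 ± 0.07, adjusted p = 0.039). This call was lost without the second 0 h, the third 0 h, the first 12 h or the second 12 h library. Rif1 had 15.4, 1.45 and 3.23 TPM at 12 h, a spread that left its change unresolved (change -1.56 ± 0.74, adjusted p = 0.11).

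Formative and primed genes rose in 23 of 26 tested cases, with a median change of 1.38. Otx2, the factor that redirects Oct4 to formative enhancers, was at 3.45, 4.23 and 3.6 TPM at 0 h and 94.3, 80.7 and 85.7 TPM at 12 h (change 4.21 ± 0.10, adjusted p = 4.4e-12). Grhl2, a factor that opens epithelial enhancers in the epiblast, was at 1.2, 2.02 and 1.56 TPM at 0 h and 23, 21.3 and 23.1 TPM at 12 h (change 3.19 ± 0.11, adjusted p = 9.9e-11). The POU factor Pou3f1, or Oct6, was at 0.68, 1.03 and 0.596 TPM at 0 h and 9.23, 13 and 12.1 TPM at 12 h (change 2.81 ± 0.13, adjusted p = 2.2e-09). Groups did not overlap in any of these 3. The epiblast factor Foxd3 rose (13.9 to 48.1 TPM, change 1.72 ± 0.10, adjusted p = 2.4e-08). Zic2, a zinc finger factor of the same tissue, rose too (9.75 to 37.2 TPM, change 1.82 ± 0.09, adjusted p = 5.1e-09). Pou3f1 and Otx2 were still higher at 24 h, with means of 51.6 ± 4.32 TPM and 168 ± 5.65 TPM. The exception was Lef1, an effector of beta-catenin that is also a primed gene. It was at 20.2, 16.5 and 17.9 TPM at 0 h and 10.2, 9.6 and 8.69 TPM at 12 h (change -0.87 ± 0.13, adjusted p = 0.00012), against a mean of 77.8 ± 3.9 TPM at 24 h. Hmga2 and Tead2 did not pass the test (-0.34 ± 0.18 and 0.18 ± 0.11).

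De novo DNA methylation genes were among the strongest of these. Dnmt3a, a de novo methyltransferase, was at 8.93, 9.23 and 10.3 TPM at 0 h and 91.8, 102 and 95.4 TPM at 12 h (change 3.21 ± 0.08, adjusted p = 8.7e-12). Dnmt3b was at 82.1, 77.5 and 79.8 TPM at 0 h and 245, 274 and 259.5 TPM at 12 h (change 1.69 ± 0.06, adjusted p = 2.5e-10). The cofactor Dnmt3l was at 168, 153 and 156 TPM at 0 h and 1158, 1354 and 1221 TPM at 12 h (change 2.96 ± 0.07, adjusted p = 6.5e-12). All 3 rose without overlap. The maintenance gene Uhrf1, which guides Dnmt1 to newly copied DNA, fell (584 to 472 TPM, change -0.31 ± 0.08, adjusted p = 0.0065). Tet1 and Tet2, which oxidise methylcytosine, had 52.2, 7.72 and 14.8 TPM and 21.6, 2.58 and 5.71 TPM at 12 h, and this spread left both unresolved (change -0.75 ± 0.60, adjusted p = 0.34; change -0.54 ± 0.67, adjusted p = 0.54). Zfp57, which protects imprinted methylation, rose (188 to 395 TPM, change 1.07 ± 0.07, adjusted p = 5.7e-08). Gadd45a, a stress gene also linked to demethylation, rose from 13.3, 15.6 and 15.3 TPM to 105, 121 and 114 TPM (change 2.87 ± 0.07, adjusted p = 8.3e-12), while Gadd45b fell (69.5 to 33.9 TPM, change -1.02 ± 0.09, adjusted p = 8.6e-07). Over the whole list 9 of 20 rose and 4 fell.

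Polycomb genes were called in both directions, 7 up and 7 down of 31, with a median of -0.04 as over all genes. When single libraries were left out, 6 to 9 rose and 6 to 10 fell, and 1 to 4 of the 12 tested PRC2 genes fell. Under correction for GC content and length 11 rose and 7 fell. The 3 PRC2 members that rose were accessory subunits. Jarid2 was at 86.2, 76.9 and 90.6 TPM at 0 h and 261, 212 and 253 TPM at 12 h (change 1.50 ± 0.11, adjusted p = 1.7e-07), and Phf19 was at 3.06, 2.55 and 2.3 TPM at 0 h and 12.2, 15.4 and 13.4 TPM at 12 h (change 2.01 ± 0.12, adjusted p = 1.5e-08). Epop was the other one (206 to 356 TPM, change 0.78 ± 0.10, adjusted p = 3e-05). Kdm2b, which recruits a PRC1 variant to CpG islands, was at 82.9, 72.6 and 79.8 TPM at 0 h and 246, 237 and 263 TPM at 12 h (change 1.65 ± 0.07, adjusted p = 9.5e-10). Its partner Pcgf1 fell (55 to 27.6 TPM, change -0.97 ± 0.10, adjusted p = 3.6e-06). Among the CBX subunits of PRC1, Cbx8 fell (4.04 to 1.63 TPM, change -0.95 ± 0.15, adjusted p = 0.00021). Cbx7, the main one in ESCs, was at 111, 103 and 112 TPM at 0 h and 126, 144 and 121 TPM at 12 h (change 0.25 ± 0.08, adjusted p = 0.018). The call of Cbx7 was lost when the second library of either group was left out. The core subunits Ezh2, Suz12 and Eed did not pass (-0.18 ± 0.24, -0.81 ± 0.63 and 0.36 ± 0.22), with Suz12 between 7.78 and 60.5 TPM within the 12 h group. Ezh1, the alternative catalytic subunit, fell (21.4 to 17.5 TPM, change -0.28 ± 0.08, adjusted p = 0.0094), but not past the threshold in a model of these 6 libraries alone.

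Components of other signals shifted within the same 12 h. Bmp4, a BMP ligand, was at 2.67, 3.61 and 3.66 TPM at 0 h and 31.4, 33.8 and 33.6 TPM at 12 h (change 2.99 ± 0.11, adjusted p = 1.8e-10). Another ligand, Bmp7, was at 12.6, 12.5 and 12.4 TPM at 0 h and 2.98, 3.58 and 3.01 TPM at 12 h (change -1.69 ± 0.12, adjusted p = 1.3e-07), a change in the opposite direction. Of the Id proteins, which inhibit basic helix-loop-helix factors and are direct BMP targets, 3 rose and 1 fell. Id1 was at 11.6, 8.35 and 11 TPM at 0 h and 45.9, 61.2 and 47.6 TPM at 12 h (change 2.22 ± 0.12, adjusted p = 1.2e-08). Id3 was at 5.8, 6.02 and 4.12 TPM at 0 h and 63.1, 82.1 and 70.9 TPM at 12 h (change 3.54 ± 0.12, adjusted p = 1.4e-10). Id2 also rose (7.97 to 14.7 TPM, change 0.83 ± 0.19, adjusted p = 0.0035), and Id4 fell (2.94 to 1.84 TPM, change -0.47 ± 0.15, adjusted p = 0.021). The call of Id4 was lost without the first or the second 0 h library or without the second or the third 12 h library. The type I receptor Acvr1 (13 to 5.68 TPM, change -1.08 ± 0.13, adjusted p = 2e-05) and the antagonist follistatin, Fst (13.9 to 6.29 TPM, change -1.03 ± 0.13, adjusted p = 2.5e-05), fell. Over 18 tested BMP genes, 7 rose and 6 fell.

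Nodal, the ligand that maintains the epiblast, was at 49.1, 40.0 and 46.3 TPM at 0 h and 60.9, 81.1 and 69.4 TPM at 12 h (change 0.63 ± 0.13, adjusted p = 0.0014). Its target and antagonist Lefty1 was at 2.73, 2.35 and 2.06 TPM at 0 h and 11.3, 15.9 and 15.3 TPM at 12 h (change 2.16 ± 0.14, adjusted p = 4.1e-08). Lefty2, the relative with the same role, was at 11.5, 11.7 and 13.7 TPM at 0 h and 49.6, 52.6 and 56.6 TPM at 12 h (change 2.02 ± 0.08, adjusted p = 3.1e-10). Inhbb, which encodes a subunit of activin B, was at 1.25, 1.18 and 1.38 TPM at 0 h and 13.9, 16.1 and 13.8 TPM at 12 h (change 2.78 ± 0.10, adjusted p = 1.5e-10). The groups were separate in these 4 genes. Tgfb1, a related ligand, rose (11.8 to 27.4 TPM, change 1.15 ± 0.11, adjusted p = 2.8e-06). The type I receptor Acvr1b (37.2 to 23.2 TPM, change -0.66 ± 0.08, adjusted p = 2.2e-05) and the processing protease Furin (17.5 to 10.4 TPM, change -0.70 ± 0.10, adjusted p = 0.0001) fell. Of 22 tested Nodal genes, 8 rose and 4 fell.

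WNT ligands, receptors and their export machinery also changed. Porcn, the acyltransferase that every WNT protein needs, was at 9.01, 5.18 and 6.56 TPM at 0 h and 55.6, 63.1 and 59.4 TPM at 12 h (change 2.96 ± 0.14, adjusted p = 1.7e-09). Wls, the carrier that takes WNT proteins to the surface, fell (5.14 to 1.62 TPM, change -1.24 ± 0.20, adjusted p = 0.00025). Wnt6 (1.84 to 11.9 TPM, change 2.17 ± 0.16, adjusted p = 1.3e-07) and Wnt7b (0.494 to 5.74 TPM, change 2.17 ± 0.16, adjusted p = 1.3e-07) rose. Wnt11 fell from 3.17, 2.65 and 4.18 TPM to 0.101, 0.149 and 0.0484 TPM (change -1.96 ± 0.20, adjusted p = 3.2e-06). Among the frizzled receptors Fzd10 was at 57.4, 48 and 49.7 TPM at 0 h and 7.53, 7.67 and 8 TPM at 12 h (change -2.59 ± 0.11, adjusted p = 9.5e-10). Fzd7 changed the other way, at 14, 14.9 and 13.7 TPM at 0 h and 48, 49.8 and 48.9 TPM at 12 h (change 1.72 ± 0.08, adjusted p = 1.6e-09). The co-receptor Lrp5 fell (47.3 to 23.4 TPM, change -0.98 ± 0.08, adjusted p = 7.4e-07). Tcf7l1, the factor that represses beta-catenin targets in ESCs, rose from 67.6, 57.7 and 65.9 TPM to 127, 136 and 119.9 TPM (change 0.99 ± 0.08, adjusted p = 6.3e-07). Ctnnb1, which encodes beta-catenin, was at 457, 519.6 and 499 TPM at 0 h and 612, 587 and 645 TPM at 12 h (change 0.32 ± 0.07, adjusted p = 0.003), and its call was lost under correction for GC content and length. Over the 37 tested pathway members 9 rose and 13 fell, and the lower count ranged from 8 to 14 when single libraries were left out (8 without the first 0 h or the third 12 h library).

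Of 15 tested Notch pathway genes, ligands and receptors included, 6 fell and 2 rose. Hes1, a Notch target and repressor, was at 60.0, 62.6 and 59.1 TPM at 0 h and 18.3, 25.1 and 22.4 TPM at 12 h (change -1.43 ± 0.12, adjusted p = 5.2e-07). The ligand Jag1 fell (6.5 to 3.55 TPM, change -0.74 ± 0.15, adjusted p = 0.0011). Rbpj, the DNA-binding partner of Notch, rose (60.4 to 203 TPM, change 1.69 ± 0.22, adjusted p = 3.9e-05), as did the receptor Notch4 (3.22 to 9.15 TPM, change 1.26 ± 0.12, adjusted p = 1.7e-06).

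**Figure D3:**
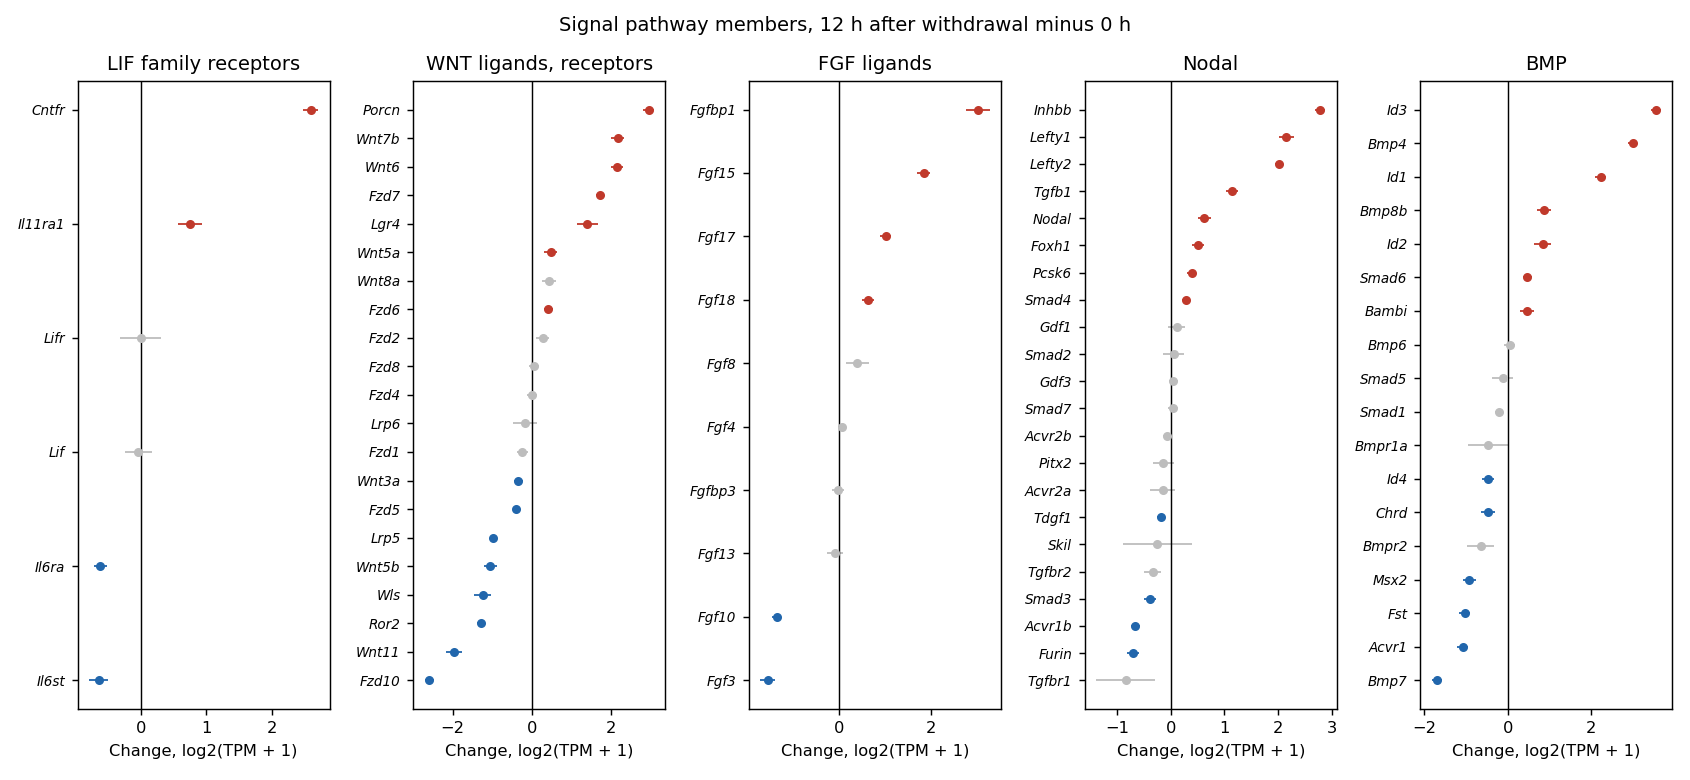
Change at 12 h against 0 h, in log2(TPM + 1) with bars for the standard error, of the tested genes for LIF and its receptor family, WNT ligands and receptors, FGF ligands, Nodal genes and BMP genes (red higher and blue lower at adjusted p below 0.05, grey not past). Fgf5 is left out because it is listed at 0 in all 0 h libraries; Bmp4 and Id3 lie at the top of the BMP panel and Fzd10 at the foot of the WNT panel.

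Growth control genes were led by Myc, which was at 5.64, 4.1 and 4.45 TPM at 0 h and 65.3, 72.8 and 69.7 TPM at 12 h (change 3.62 ± 0.10, adjusted p = 2.1e-11). Mycn, the more abundant family member at 0 h, rose less (49.9 to 74.4 TPM, change 0.57 ± 0.09, adjusted p = 0.00015). Mxd4, a MAX partner that opposes Myc, rose (1.86 to 7.51 TPM, change 1.56 ± 0.13, adjusted p = 5.5e-07), and the antagonist Mnt fell (22.3 to 16.2 TPM, change -0.43 ± 0.09, adjusted p = 0.0021). Of 19 tested G1 cell cycle genes 4 rose (21.1%) and 3 fell (15.8%), shares no larger than those over all genes, with a median of -0.02. The lower count lay between 2 and 5 when single libraries were left out. Cdkn1a, the CDK inhibitor p21, was at 266, 242 and 256 TPM at 0 h and 53.6, 58.2 and 52.3 TPM at 12 h (change -2.20 ± 0.07, adjusted p = 4.5e-11). Cdkn1c, the inhibitor p57, rose (2.04 to 6.93 TPM, change 1.37 ± 0.14, adjusted p = 4.8e-06). Of the D cyclins, Ccnd1 fell (129 to 102 TPM, change -0.34 ± 0.08, adjusted p = 0.0039) and Ccnd3 rose (384 to 522 TPM, change 0.45 ± 0.08, adjusted p = 0.00067). Ccnd2 rose from below 1 TPM to 5.93, 4.82 and 6.53 TPM (change 2.33 ± 0.15, adjusted p = 4.3e-08). Replication and mitosis genes mostly did not pass: 5 of 24 rose and 2 fell, with a median of 0.01. The lower count was 6 without the first 12 h library and 1 without the second 0 h, the third 0 h or the third 12 h library, and 6 under correction for GC content and length. Mki67, a marker of cycling cells, had 9.65, 0.876 and 2.53 TPM at 12 h (change -1.49 ± 0.59, adjusted p = 0.06).

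Trp53, which encodes p53, rose from 426, 388 and 393 TPM to 764, 883 and 780.1 TPM (change 1.00 ± 0.08, adjusted p = 2.4e-07), while several of its targets differed in direction. Besides Cdkn1a, Gdf15 fell (13.1 to 3.01 TPM, change -1.82 ± 0.15, adjusted p = 4.7e-07). Pmaip1, the BH3-only gene Noxa, rose (3.03 to 10.4 TPM, change 1.41 ± 0.33, adjusted p = 0.0033). The targets Perp (10.1 to 22.2 TPM, change 1.07 ± 0.12, adjusted p = 7.8e-06) and Bax (510.1 to 702 TPM, change 0.45 ± 0.08, adjusted p = 0.00045) also rose. In all, 9 of 18 tested p53 genes rose and 4 fell. Among cell death genes 6 of 17 rose, including the BH3-only genes Bmf (3.97 to 15.3 TPM, change 1.71 ± 0.10, adjusted p = 1.8e-08) and Bcl2l11, or Bim (5.3 to 14.3 TPM, change 1.28 ± 0.08, adjusted p = 2.4e-08). The anti-apoptotic Bcl2l1 rose too (40.4 to 64.3 TPM, change 0.65 ± 0.13, adjusted p = 0.0011). The BH3-only gene Bid (75.5 to 47.3 TPM, change -0.66 ± 0.07, adjusted p = 3.7e-06) and the initiator Casp9 (24.4 to 14.1 TPM, change -0.76 ± 0.12, adjusted p = 0.00025) fell.

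The integrated stress response was lower nearly throughout. In this response, kinases that sense amino acid shortage, unfolded protein or other stress raise translation of Atf4, which turns on genes for amino acid synthesis, amino acid import and, with time, cell death. Of the 20 tested genes 18 fell and 1 rose, with a median change of -1.15. Nupr1, a small stress-induced chromatin protein, was at 77.9, 97 and 100.3 TPM at 0 h and 5.04, 6.06 and 6.96 TPM at 12 h (change -3.72 ± 0.13, adjusted p = 1.7e-10). Ddit3, the factor CHOP, was at 69.1, 75.3 and 66.5 TPM at 0 h and 9.9, 10.9 and 11.8 TPM at 12 h (change -2.59 ± 0.08, adjusted p = 6.4e-11). Ddit4, an inhibitor of mTORC1, was at 336, 303 and 322 TPM at 0 h and 62.6, 72.1 and 71.6 TPM at 12 h (change -2.20 ± 0.07, adjusted p = 1e-10). The groups did not overlap in any of them. Atf4 itself fell (350.3 to 197 TPM, change -0.83 ± 0.07, adjusted p = 9.3e-07), as did the pseudokinase Trib3 (55.3 to 15.5 TPM, change -1.78 ± 0.11, adjusted p = 4.2e-08). Asparagine synthetase, Asns, fell (1452 to 685 TPM, change -1.08 ± 0.05, adjusted p = 9.5e-10), and so did Chac1, which degrades glutathione (23.3 to 6.74 TPM, change -1.66 ± 0.11, adjusted p = 9.2e-08). The higher gene was Sesn2, an amino acid sensor for mTORC1 that is also a p53 target (99.3 to 139.7 TPM, change 0.49 ± 0.09, adjusted p = 0.00053). Slc7a11, the cystine transporter, was near 1 TPM and did not pass (-0.04 ± 0.42).

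Serine and one-carbon synthesis overlap this response. Psat1, Phgdh and Mthfd2 are members of both lists. Psat1, an enzyme of serine synthesis, fell (459 to 198 TPM, change -1.21 ± 0.06, adjusted p = 4.3e-09). Phgdh, the first enzyme of that route, fell by 1.00 ± 0.10 (212 to 106 TPM, adjusted p = 2.1e-06). Mthfd2, a mitochondrial folate enzyme, fell as well (169.8 to 90.9 TPM, change -0.89 ± 0.06, adjusted p = 2.8e-08). Tdh, the threonine dehydrogenase on which mouse ESCs are known to depend, was at 899, 839 and 843 TPM at 0 h and 547, 619.5 and 585 TPM at 12 h (change -0.56 ± 0.08, adjusted p = 9.3e-05). Gcat, the next enzyme of that route, fell (127 to 57.7 TPM, change -1.12 ± 0.11, adjusted p = 3.1e-06). Mat2a, which makes S-adenosylmethionine, rose from 133, 153 and 159.7 TPM to 453, 318 and 426 TPM (change 1.41 ± 0.15, adjusted p = 5.4e-06). Of 17 tested genes 11 fell and 2 rose.

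Cholesterol synthesis genes fell in 18 of 25 tested cases and none rose, with a median of -0.70. Insig1, which holds back the sterol-regulated factors and is itself their target, was at 65.2, 76.7 and 74.6 TPM at 0 h and 31.8, 28.3 and 30.4 TPM at 12 h (change -1.23 ± 0.08, adjusted p = 4.1e-08). Every 12 h library lay below every 0 h library. The late enzymes Dhcr7 (81.1 to 29.9 TPM, change -1.42 ± 0.16, adjusted p = 1.2e-05) and Tm7sf2 (35.9 to 12.4 TPM, change -1.46 ± 0.17, adjusted p = 1.1e-05) changed most. Both factors that drive the pathway fell, Srebf1 (54 to 29.1 TPM, change -0.87 ± 0.08, adjusted p = 1.6e-06) and Srebf2 (162 to 100.3 TPM, change -0.69 ± 0.08, adjusted p = 1.6e-05). Scap, the escort of those factors, did not pass (-0.02 ± 0.08). Fatty acid genes gave 8 of 13 lower and 1 higher. The desaturase Scd2 was at 344, 336 and 348 TPM at 0 h and 132, 141 and 142 TPM at 12 h (change -1.30 ± 0.05, adjusted p = 3.9e-10). The synthase Fasn fell (176 to 119.8 TPM, change -0.55 ± 0.08, adjusted p = 0.00012).

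Glycolysis genes fell in 20 of 27 tested cases and rose in 3, with a median of -0.34. Hk1, a hexokinase that traps glucose in the cell, was at 200.3, 179 and 184 TPM at 0 h and 48.9, 55.3 and 52.1 TPM at 12 h (change -1.83 ± 0.08, adjusted p = 8.7e-10). The related Hk2 was at 303, 277 and 289 TPM at 0 h and 135, 145 and 143 TPM at 12 h (change -1.03 ± 0.06, adjusted p = 7.6e-09). Both fell without overlap. The glucose transporter Slc2a3 fell (1007 to 479.9 TPM, change -1.07 ± 0.07, adjusted p = 6.4e-08), and so did the aldolase Aldoa (4099 to 2117 TPM, change -0.95 ± 0.08, adjusted p = 3.5e-07). Ldha, which makes lactate, also fell (2705 to 1724 TPM, change -0.65 ± 0.07, adjusted p = 5e-06). Gapdh, often taken as a constant reference, was at 7659, 7045 and 6999 TPM at 0 h and 5924, 6139.9 and 5848 TPM at 12 h (change -0.28 ± 0.06, adjusted p = 0.0013), and this call was lost after quantile normalization. The 3 higher genes were the muscle-type forms Pfkm (46.7 to 100.4 TPM, change 1.09 ± 0.10, adjusted p = 1e-06) and Eno3 (33.9 to 49.1 TPM, change 0.51 ± 0.11, adjusted p = 0.0019), and Pdk1. The last is a kinase that keeps pyruvate out of the mitochondrion (37 to 73.1 TPM, change 0.96 ± 0.09, adjusted p = 1e-06).

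**Figure D4:**
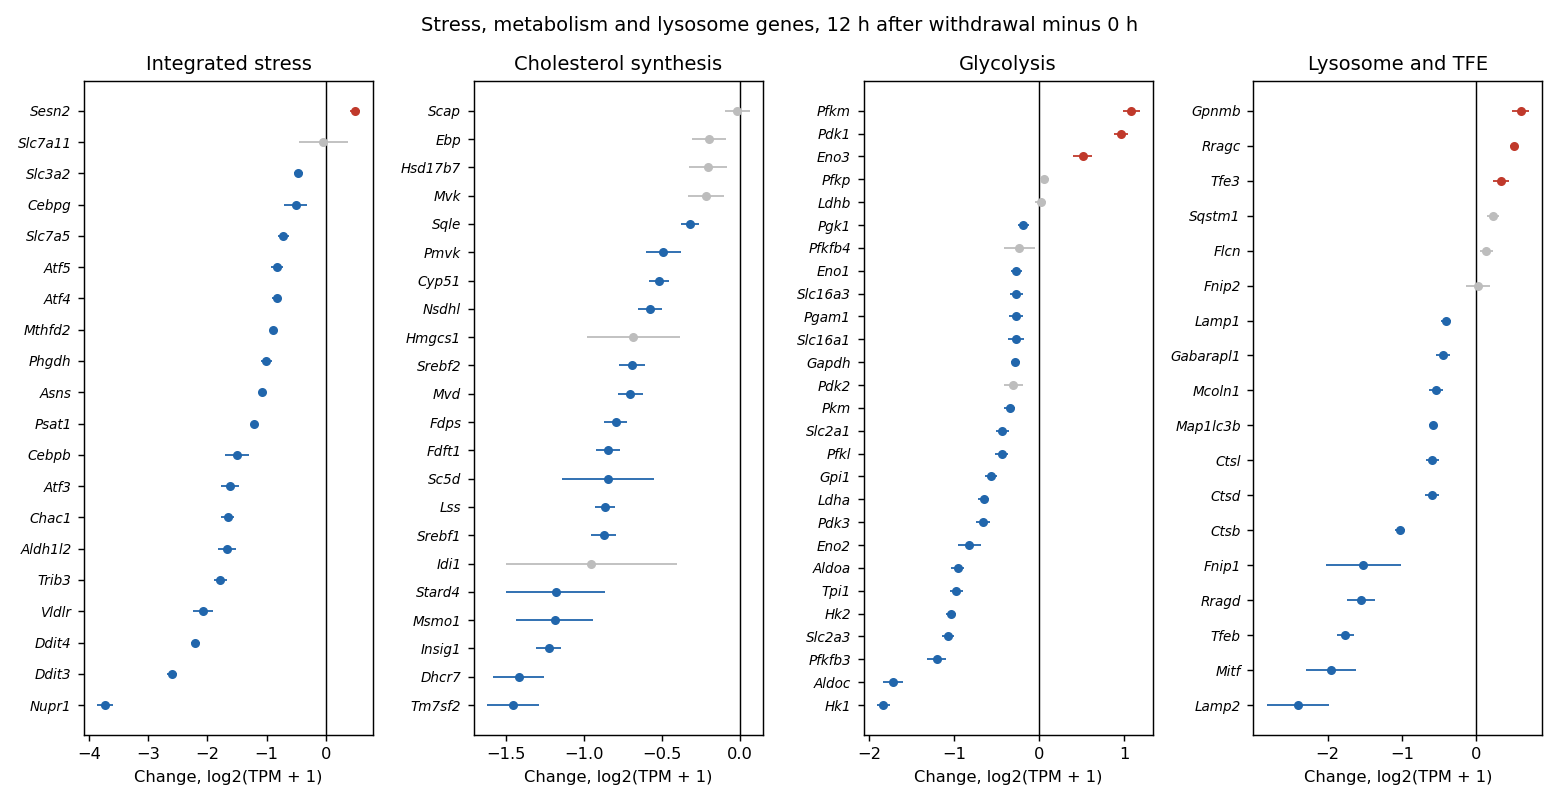
Change at 12 h against 0 h, in log2(TPM + 1) with bars for the standard error, of the tested genes of the integrated stress response, cholesterol synthesis (22 of 25 drawn), glycolysis and lysosome lists (red higher and blue lower at adjusted p below 0.05, grey not past). Nearly all points of the first 3 panels lie left of the zero line, from Nupr1 at -3.72 ± 0.13 at one end to Pfkm at 1.09 ± 0.10 at the other.

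Levels of these metabolic and stress genes at 24 h without RA are set beside those at 12 h, with no test. Ddit3 was at 45.9, 43.6 and 47.8 TPM at 24 h, between its values at 12 h and 0 h, and Ddit4 at 276, 275 and 280.2 TPM. Nupr1 was at 43.7, 48.8 and 51.4 TPM, and Trib3 at 32.4, 33.6 and 33.2 TPM. The 24 h levels of all 4 genes lay above every 12 h library and below the lowest 0 h library. Insig1 stood at 57.5, 63.3 and 59.9 TPM, Aldoa at 3556, 3524 and 3492 TPM and Ldha at 3233, 3258 and 3239 TPM. Asns did not follow them, at 515, 541 and 522 TPM, nor did Hk1, at 36.8, 39 and 36.2 TPM. Medium was replaced daily in routine culture, and when it was last replaced before each collection is not given in the sources used here.

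**Figure D5:**
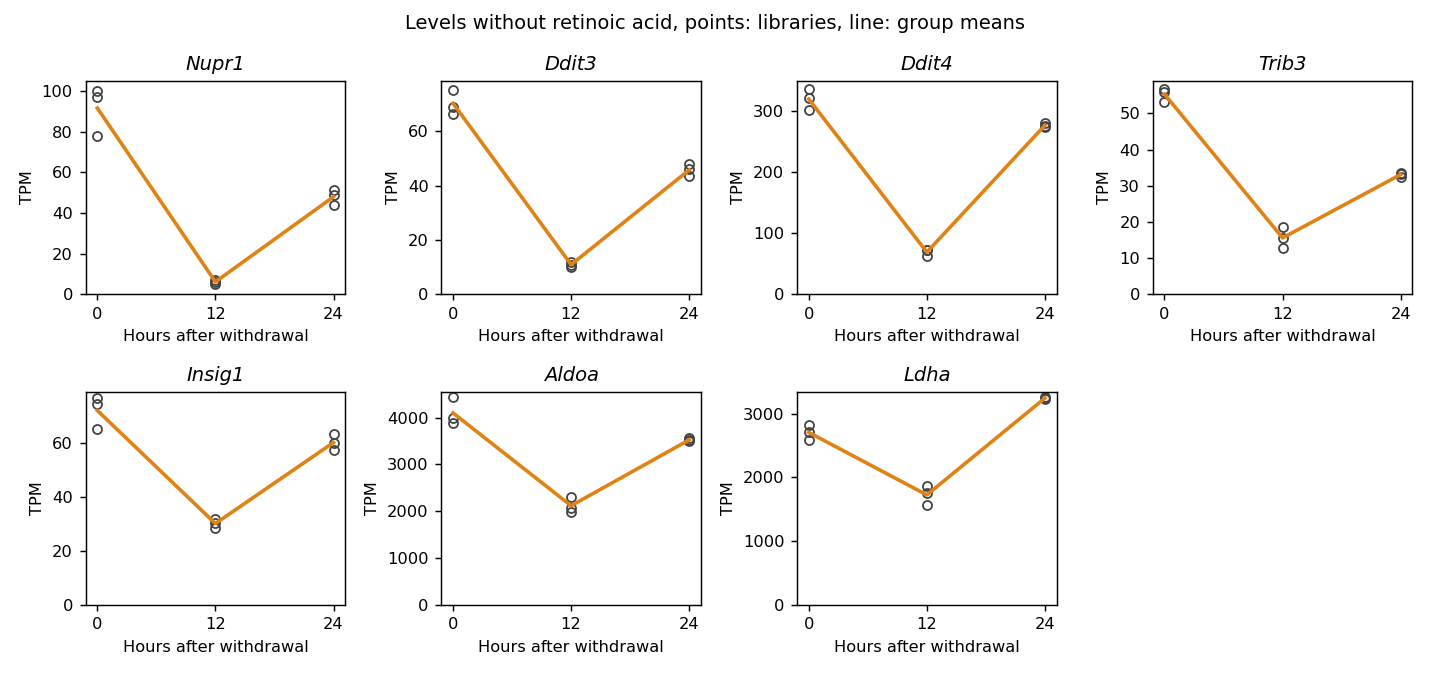
TPM of 7 stress, sterol and glycolysis genes, chosen after their values were seen, in the 3 libraries each at 0 h, 12 h and 24 h without retinoic acid (open points), with lines through the group means and axes that start at 0. In each gene the 12 h libraries are the lowest of the 3 times.

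Lysosome genes and their TFE regulators fell in 12 of 18 tested cases and rose in 3, with a median of -0.56. Tfeb, a transcription factor for lysosome genes, was at 74.1, 60.1 and 67.3 TPM at 0 h and 17.7, 20.4 and 19.2 TPM at 12 h (change -1.76 ± 0.11, adjusted p = 3.6e-08). Its relative Tfe3, whose exclusion from the nucleus is a known step in leaving the naive state, was at 49.6, 47.4 and 50.4 TPM at 0 h and 59.2, 68.1 and 59.1 TPM at 12 h (change 0.33 ± 0.10, adjusted p = 0.019). This call was lost when the second library of either group was left out. The remaining relative Mitf fell (11 to 2.35 TPM, change -1.95 ± 0.34, adjusted p = 0.00037). The membrane protein Lamp2 changed most (30.9 to 5.58 TPM, change -2.40 ± 0.42, adjusted p = 0.00043). The cathepsins Ctsb (115 to 56.2 TPM, change -1.02 ± 0.07, adjusted p = 5.5e-08) and Ctsd (410.0 to 272 TPM, change -0.59 ± 0.09, adjusted p = 0.00017) and Lamp1 (535 to 404 TPM, change -0.41 ± 0.07, adjusted p = 0.00021) also fell. Flcn, the folliculin gene that controls Tfe3, did not pass (0.13 ± 0.08). Rragc, a GTPase that works with folliculin, rose (24.5 to 35.2 TPM, change 0.50 ± 0.06, adjusted p = 1e-05), and Rragd fell (20.5 to 6.48 TPM, change -1.55 ± 0.18, adjusted p = 1.6e-05).

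Counts of called respiration and translation genes depended on the processing. Of 73 tested subunits of oxidative phosphorylation 23 fell and 2 rose, with a median of -0.16. Leaving out single libraries gave 13 to 32 lower subunits, with 13 without the first 12 h library and 15 without the second 0 h library, and correction for GC content and length gave 43. Atp5d was the lowest (406 to 271 TPM, change -0.59 ± 0.13, adjusted p = 0.0027). Of 13 genes encoded in mitochondrial DNA 6 fell, but 0 fell without the third 0 h library, the second 12 h library or the third 12 h library. The subunit gene with the most negative change, mt-Nd5, was at 962, 791 and 1404 TPM at 0 h and 814, 416 and 369 TPM at 12 h, with overlapping groups (change -1.03 ± 0.32, adjusted p = 0.02). Mitochondrially encoded genes held 3.03% of all TPM at 0 h and 2.44% at 12 h (two-sided exact permutation test, p = 0.3, n = 3 and 3, smallest possible p 0.1). Ribosomal proteins held 19.2% and 18.7% (exact permutation p = 0.4); 6 of 81 rose and 6 fell, and under the GC and length correction 0 rose and 22 fell. Without single libraries 1 to 8 ribosomal genes rose, with 2, 1 and 3 without the first 0 h, the third 0 h and the second 12 h library. Between 2 and 7 fell, with 2, 3 and 2 without the first 0 h, the second 0 h and the third 12 h library.

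Cytoskeletal and other genes listed for YAP and SRF rose in 13 of 24 tested cases and fell in 4, with a median of 0.40. The activity of YAP and SRF was not tested. Actb, the beta-actin gene, was at 1505, 1335 and 1365 TPM at 0 h and 2111, 2470.4 and 2315 TPM at 12 h (change 0.71 ± 0.07, adjusted p = 2.1e-06). Myl9, a myosin light chain, was at 1.53, 0.948 and 1.96 TPM at 0 h and 13.9, 17.3 and 15.7 TPM at 12 h (change 2.76 ± 0.14, adjusted p = 5.6e-09). Ccn2, a secreted YAP target known as CTGF, was at 4.77, 4.68 and 4.91 TPM at 0 h and 22.1, 24.2 and 21.6 TPM at 12 h (change 2.03 ± 0.09, adjusted p = 1e-09). Their libraries were fully separate between the groups. The DNA-binding partner Tead1 fell (47.2 to 13.6 TPM, change -1.82 ± 0.40, adjusted p = 0.0023), as did the coactivator Wwtr1, or TAZ (22.1 to 11 TPM, change -1.02 ± 0.26, adjusted p = 0.0059). Yap1 rose (67.8 to 90.6 TPM, change 0.41 ± 0.07, adjusted p = 0.00019).

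Calcium-binding and glycan-binding genes rose in 13 of 19 cases and fell in 5. S100a10 was at 83.3, 85.3 and 69.9 TPM at 0 h and 359.9, 423 and 424 TPM at 12 h (change 2.33 ± 0.09, adjusted p = 2.7e-10). Its partner Anxa2, with which it forms a membrane complex, was at 112, 112 and 114 TPM at 0 h and 252, 283 and 289 TPM at 12 h (change 1.27 ± 0.06, adjusted p = 1.3e-09). Anxa3 (2.87 to 17.9 TPM, change 2.27 ± 0.18, adjusted p = 2.8e-07) and Anxa1 (2.56 to 9.88 TPM, change 1.57 ± 0.27, adjusted p = 0.00037) rose as well. S100a1 (26.7 to 7.49 TPM, change -1.71 ± 0.18, adjusted p = 4.2e-06) and S100a13 (27.4 to 11.8 TPM, change -1.15 ± 0.14, adjusted p = 2.5e-05) fell. Anxa4 (70.1 to 25.2 TPM, change -1.46 ± 0.13, adjusted p = 7.5e-07) fell too, so the S100 and annexin families each had members in both directions. Lgals1 was the member that did not pass (-0.11 ± 0.09).

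Basement membrane genes changed in both directions, 5 of 13 rising and 7 falling. Lama1, the laminin chain of the earliest basement membrane, was at 77.5, 65.6 and 74.6 TPM at 0 h and 7.76, 6.28 and 6.97 TPM at 12 h (change -3.20 ± 0.10, adjusted p = 4.5e-11). The laminin chains Lamb2 (38.7 to 8.64 TPM, change -2.04 ± 0.13, adjusted p = 3.8e-08) and Lama5 (66.7 to 28.6 TPM, change -1.19 ± 0.09, adjusted p = 2e-07) fell with it. The collagen IV chains Col4a1 (8.09, 7.83 and 8.22 TPM at 0 h and 67.7, 66.3 and 63.5 TPM at 12 h, change 2.88 ± 0.07, adjusted p = 9.1e-12) and Col4a2 (5.33 to 20.6 TPM, change 1.78 ± 0.11, adjusted p = 2.8e-08) rose. Integrins, the receptors for these proteins, rose in 7 of 12 tested cases and fell in 1. Itga3 was at 8.66, 8.02 and 8.92 TPM at 0 h and 60.0, 66.8 and 62.1 TPM at 12 h (change 2.75 ± 0.07, adjusted p = 9.5e-12). Itga9 was at 0.777, 0.714 and 0.817 TPM at 0 h and 14.9, 14.8 and 15.1 TPM at 12 h (change 3.17 ± 0.09, adjusted p = 2.4e-11). Fibronectin, Fn1, fell (610.0 to 242 TPM, change -1.33 ± 0.09, adjusted p = 7.4e-08). Of 19 tested genes of cell adhesion 7 rose and 6 fell, and of the 14 cadherin and epithelial genes among them 7 rose and 4 fell. Cldn7 was lower, from 11.1, 10.4 and 11.5 TPM to 2.02, 4.04 and 3.37 TPM. Cldn4 was lower too, from 81.6, 73.3 and 79.5 TPM to 40.1, 46.6 and 40.5 TPM. Cdh3, or P-cadherin, rose (7.58 to 30.2 TPM, change 1.87 ± 0.11, adjusted p = 2.7e-08). Epcam (59.5 to 127 TPM, change 1.08 ± 0.09, adjusted p = 6.6e-07) and the apical sialomucin Podxl (12.5 to 29.3 TPM, change 1.17 ± 0.09, adjusted p = 3.9e-07) rose with it. Cdh1, the E-cadherin gene, was at 269, 247 and 258 TPM at 0 h and 220.2, 224 and 223 TPM at 12 h (change -0.21 ± 0.06, adjusted p = 0.0097). Vim, an intermediate filament gene, was at 302, 303 and 299.7 TPM at 0 h and 261, 301 and 280.4 TPM at 12 h (change -0.11 ± 0.06, adjusted p = 0.17).

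Posterior patterning genes that were on at 0 h fell. Of 18 listed Hoxc and Hoxd genes 9 were below the filter, and of the 9 tested 8 fell, all of the Hoxc cluster. Among the libraries without RA, Hoxc5, Hoxc9, Hoxc10 and Hoxc11 reached 1 TPM only at 0 h. Where a gene passed the filter through the 0 h libraries alone, a lower level at 12 h was set in advance. The count of lower genes may therefore owe part of its size to the filter. Hoxc10 was at 5.75, 5.01 and 5.31 TPM at 0 h and 0.777, 0.993 and 0.928 TPM at 12 h (change -1.74 ± 0.16, adjusted p = 1.5e-06). Hoxc13 was at 8.9, 9.6 and 10.8 TPM at 0 h and 2.84, 3.55 and 3.13 TPM at 12 h (change -1.37 ± 0.18, adjusted p = 3.9e-05). Hoxd13 did not pass (0.24 ± 0.15). Cdx1, Cdx2 and Nkx1-2, described above, are also posterior genes.

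Markers of other lineages and cell types were followed as whole lists, and their part in the other results was not tested. Of 13 tested trophoblast genes 7 fell and 5 rose, and their summed level over all 15 listed lay between 205 and 211 TPM at 0 h and between 254 and 312 TPM at 12 h. The mean of Peg10, given below, rose by more than this sum, so the mean sum of the other genes was lower at 12 h. The trophoblast factor Gata2, at 8.36, 9.07 and 8.02 TPM at 0 h and 0.176, 0.0607 and 0.331 TPM at 12 h, fell by 3.00 ± 0.18 (adjusted p = 2.6e-08). Tfap2c, also a germ cell factor, was at 46.5, 44.8 and 41.5 TPM at 0 h and 5.29, 5.43 and 5.79 TPM at 12 h (change -2.80 ± 0.11, adjusted p = 3.9e-10). Gata3 rose (0.417 to 1.87 TPM, change 1.02 ± 0.14, adjusted p = 4.7e-05). The imprinted gene Peg10 rose as well (43.6 to 182 TPM, change 2.02 ± 0.16, adjusted p = 3.8e-07). The defining markers Elf5 and Plac1 stayed below 1 TPM in every library.

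Of 16 tested primitive endoderm genes 5 rose and 2 fell, and the sum over 18 listed went from between 299 and 332 TPM to between 530 and 597 TPM. Sparc, a matrix protein, was the most abundant (224 to 467 TPM, change 1.05 ± 0.08, adjusted p = 2.8e-07), and together with Col4a1 and Lama1 it is also expressed by ESCs. The endoderm factors Gata6 (change 0.18 ± 0.14, adjusted p = 0.33), Sox17 (change 0.16 ± 0.26, adjusted p = 0.64), Sox7 and Foxa2 stayed below 1 TPM in every library, and Ttr was listed at 0 in all 6. Gata4 fell (1.75 to 0.452 TPM, change -0.92 ± 0.16, adjusted p = 0.00031).

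Primitive streak genes gave 4 of 8 higher and 3 lower, with 8 more below the filter. Their sum lay between 30.0 and 34.1 TPM at 0 h and between 34.1 and 37.9 TPM at 12 h. Kdr, a VEGF receptor of early mesoderm and endothelium, rose from 2.75, 2.88 and 3.39 TPM to 17.9, 15 and 16.5 TPM (change 2.12 ± 0.12, adjusted p = 1.2e-08), and its mean at 24 h was 3.23 ± 0.42 TPM. Hand1 rose (0.244 to 2.04 TPM, change 1.28 ± 0.19, adjusted p = 0.0001) and Gsc fell (3.21 to 0.454 TPM, change -1.54 ± 0.13, adjusted p = 5e-07). Mixl1, Mesp1 and Tbx6 stayed below 1 TPM and Lhx1 and Msgn1 were listed at 0 in all 6. Of 15 neural genes 10 were below the filter, with Neurog2 and Olig2 at 0 throughout. Pax6, an early neural and eye factor, rose to 1.21, 0.678 and 0.799 TPM (change 0.82 ± 0.18, adjusted p = 0.0027), and Sox1 did not pass (-0.07 ± 0.12). The neural sum lay between 68.8 and 71.5 TPM at 0 h and between 77.4 and 92.6 TPM at 12 h, most of it from Tubb3, Ncam1 and Nes.

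Genes of the 2-cell-like state, of fibroblasts as in feeder layers, and of blood and endothelium were also followed. Of 15 listed genes of the 2-cell-like state 14 were matched by symbol, all below the filter, with a sum of 0.99 to 1.83 TPM at 0 h and 0.34 to 1.5 TPM at 12 h. Fibroblast genes summed to between 21.3 and 22.9 TPM at 0 h and between 22.3 and 26.5 TPM at 12 h. Lum and Twist2 were listed at 0 in all 6 libraries, and Col1a1 was at 0.741, 0.769 and 1.38 TPM at 0 h and 1.11, 1.08 and 0.937 TPM at 12 h. Of 9 tested fibroblast genes Thy1 rose (4.65 to 11.1 TPM, change 1.10 ± 0.14, adjusted p = 4e-05), and Col1a2 and Pdgfrb fell, and the lower count was 1 without the second 0 h, the third 0 h or the third 12 h library. Blood and endothelium genes summed to between 118 and 124 TPM at 0 h and between 100.1 and 116 TPM at 12 h. Most of it came from Pecam1, an adhesion protein that ESCs also express (116 to 86.8 TPM, change -0.42 ± 0.06, adjusted p = 8.2e-05). Gata1 rose (0.255 to 2.11 TPM, change 1.31 ± 0.21, adjusted p = 0.00019), and Ptprc, Cdh5 and Tal1 stayed below 1 TPM. The beta globin gene Hbb-bs was at 2.5 TPM in the third 12 h library and at most 0.413 TPM in the other 5.

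Germline genes rose in 7 and fell in 6 of 22 cases. Mael, a piRNA pathway gene, was at 5.43, 4.33 and 4.46 TPM at 0 h and 22.6, 23.8 and 25.1 TPM at 12 h (change 2.12 ± 0.09, adjusted p = 5.9e-10). Slc25a31, a mitochondrial carrier of germ cells, also rose (0.771 to 5.6 TPM, change 1.90 ± 0.13, adjusted p = 7.8e-08). Dazl, an RNA-binding germ cell protein, did not pass (3.92 to 12.6 TPM, change 1.13 ± 0.56, adjusted p = 0.13), and the meiotic cohesin gene Rec8 fell (29.9 to 9.89 TPM, change -1.50 ± 0.11, adjusted p = 2.3e-07).

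Genes with the largest changes outside these lists included Eras, an ESC-specific relative of the Ras oncogenes, at 2.55, 2.59 and 3.94 TPM at 0 h and 65.7, 79 and 72.6 TPM at 12 h (change 4.20 ± 0.13, adjusted p = 3.4e-11). Pla2g7, which inactivates platelet-activating factor, was at 0.1, 0.146 and 0.15 TPM at 0 h and 21.6, 12 and 18.2 TPM at 12 h (change 3.97 ± 0.19, adjusted p = 2.3e-09). Exoc3l was at 5.33, 5.77 and 5.8 TPM at 0 h and 99.8, 109.5 and 101 TPM at 12 h (change 3.98 ± 0.09, adjusted p = 4.4e-12). On the lower side, Bhlhe40, a repressor that also takes part in the circadian clock, was at 68.3, 62.2 and 69.7 TPM at 0 h and 4.7, 5.34 and 5.49 TPM at 12 h (change -3.46 ± 0.08, adjusted p = 7.1e-12). Gpx2, a glutathione peroxidase, was at 67.4, 64.9 and 58 TPM at 0 h and 5.24, 3.85 and 5.84 TPM at 12 h (change -3.44 ± 0.21, adjusted p = 2.6e-08). Pgc, which encodes the pepsinogen progastricsin, was at 49.3, 40.6 and 43.4 TPM at 0 h and 2.66, 4.88 and 3.45 TPM at 12 h (change -3.31 ± 0.24, adjusted p = 1.3e-07), and Lhfpl2 was at 13.5, 16 and 16 TPM at 0 h and 0.519, 0.506 and 0.494 TPM at 12 h (change -3.42 ± 0.13, adjusted p = 2.3e-10). In all 7 genes the libraries at 0 h and 12 h did not overlap.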

How the data were processed

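Gene abundance tables, 1 per library, were used. The submitters' processing notes name the build mm10, the aligner HISAT2 and the assembler StringTie, without versions, options or annotation. The deposited TPM values, per the file headers, are the authors' levels per gene, adjusted for length and summing to the same total in each library. The deposited FPKM values, an alternative unit, and the deposited coverage values, the mean read depth per base, came from the same tables, and their ratio gave aligned gigabases. No read counts were used. Per the labels, polyadenylated RNA was sequenced as paired ends on one of several instruments, with no record of which library ran on which.

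Tested genes reached 1 TPM in 3 or more of 15 time course libraries. The test was run on log2(TPM + 1), a pseudocount of 1, with limma 3.58.1 in R 4.3.3 (eBayes with an intensity trend). All 15 libraries entered 1 model with 5 groups, which share 1 estimate of spread, and the contrast was 12 h without RA minus 0 h. Calls used a Benjamini-Hochberg adjusted p below 0.05 over all genes tested. The fit was tested on simulated data. Tables and figures used Python 3.11.15, pandas 2.3.3 and matplotlib 3.10.9. GENCODE M21 gave exonic length and GC content, and promoters came from RefSeq (GRCm38.p6), matched by symbol.

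Members and gene lists were chosen with earlier results of these data known. Named genes were Socs3, Sp5 and Dusp6, the 12 highest and 12 lowest changes without overlap and with a mean of at least 5 TPM in the higher group (predicted models and genes listed at 0 in a whole group left out), preset anchor genes of the lists, the 3 highest and 3 lowest members of each list, and members not past the threshold where 3 or fewer were not. Further list members, such as Icam1, Mt1, Trib3, Asns, Fzd7, Suz12 and Spry2, were named after their values were seen. Some genes that the rule names are not reported here, and counts over lists include them. Alternatives were pseudocounts of 0.1 and 0.5, no expression filter, a filter on mean TPM of 5 or more, FPKM, median-of-ratios scaling, quantile normalization, a model of the 6 libraries, no trend, array weights, a replicate block, a GC and length correction (natural splines, 4 degrees of freedom per library), the within-group axis as a covariate, and leaving out each library. A covariate for each library's position on that axis was added after the data were seen.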

Additional observations from a re-analysis of the deposited data

How the results depend on the processing

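Socs3, Sp5 and Dusp6 kept their direction and call under every alternative run, between -4.22 and -3.99, between -5.54 and -5.33 and between 3.70 and 3.88 when single libraries were left out. In the limma model of the 6 libraries alone, their adjusted p-values were 1.36e-05, 1.28e-05 and 1.36e-05. Leaving out single libraries gave 2660 to 3050 higher and 2383 to 3345 lower genes, with 703 to 745 higher and 634 to 1286 lower by 2-fold or more. The lower count was 5190 with array weights and 4760 with the within-group axis as a covariate. The count higher by 2-fold or more was 1149 with a pseudocount of 0.1, and the count lower by 2-fold or more was 368 at a mean of at least 5 TPM, where fewer genes are tested, and 1180 with array weights. The cause of the other shifts was not tested. Changes of direction were seen for Lifr (0.31) and Zfp281 (0.46) with the library position as a covariate, added after the data were seen, and for mt-Atp8 (0.73) after GC and length correction; none of the 3 was called as reported. Of the 229 other named genes past the threshold, 208 kept their call in every alternative and 21 lost it in at least 1, most often in the model of the 6 libraries (14). Replicate numbers did not pair the libraries: deviations of equally numbered libraries correlated at -0.529, 0.01 and -0.238, and with a replicate block 2905 genes were higher and 2629 lower. No group has more than 3 libraries, depth is known only as aligned bases, and counting error of low genes cannot be given.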
